A study of Mus musculus with 23 samples.

Results

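Open chromatin was described at 69 splicing factor genes among the 21631 protein-coding mouse genes of the RefSeq annotation. The genes were chosen by symbol (beginning with Srsf, Hnrnp, Snrp except Snrpn, Sf3a, Sf3b, Prpf or U2af), and Srek1 was added as a marker. The marker and the grouping were selected on earlier readings of the same peak calls, so every count of calls below is a description and no test was run. A gene was counted as called in a peak list when a peak lay within 1 kb of its annotated start or end.

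The peaks come from ATAC-seq, in which a transposase cuts and tags accessible DNA. The samples were mesenchyme of the maxillary prominence, the embryonic tissue of the upper jaw and palate, from wild-type C57BL/6 mouse embryos. The embryos were of embryonic day 10.5, 11.5 or 12.5 (E10.5, E11.5 and E12.5). Per the labels, the ectoderm was peeled away after Dispase treatment and about 50000 cells went into each library. Each stage had 3 biological samples with 1 peak list each, built from 1 to 4 sequenced runs. The labels do not say how many embryos a sample holds.

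Splicing removes introns from pre-mRNA in the spliceosome, a machine of small nuclear ribonucleoproteins (snRNPs) and many accessory proteins. SR proteins mostly bind exons and recruit the machinery, whereas hnRNP proteins coat nascent RNA and often oppose or redirect splice site choice. These genes are expressed in nearly all cells, and most have promoters rich in CpG dinucleotides, a class that is often accessible irrespective of tissue.

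Promoters of 5 genes are shown because the account turns on them. Srek1 had a peak within 1 kb of its start in all earlier lists and in none at E12.5. Hnrnpc had the highest ranking peaks among genes called throughout, and Prpf4b, Sf3b1 and Hnrnph2 lacked an E12.5 call. The sequences run 5′ to 3′ on the gene's strand from 250 bases before to 50 bases after the RefSeq start (GRCm38.p6, which is mm10). Capitals mark matches on either strand to the motifs named below.
Srek1, chr13:103774559-103774858, minus strand: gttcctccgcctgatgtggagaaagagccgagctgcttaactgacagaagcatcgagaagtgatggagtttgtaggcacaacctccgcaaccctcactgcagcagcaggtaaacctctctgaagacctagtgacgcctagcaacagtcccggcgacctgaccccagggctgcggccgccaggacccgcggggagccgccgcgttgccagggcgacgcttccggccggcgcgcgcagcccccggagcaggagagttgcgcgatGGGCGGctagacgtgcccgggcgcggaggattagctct
Hnrnpc, chr14:52103972-52104271, minus strand: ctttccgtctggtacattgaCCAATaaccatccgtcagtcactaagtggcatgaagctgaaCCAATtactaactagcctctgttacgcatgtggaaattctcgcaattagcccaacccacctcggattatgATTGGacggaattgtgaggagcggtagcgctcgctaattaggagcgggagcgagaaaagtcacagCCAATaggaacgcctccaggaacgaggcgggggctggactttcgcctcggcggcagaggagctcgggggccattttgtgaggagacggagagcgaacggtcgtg
Prpf4b, chr13:34875279-34875578, plus strand: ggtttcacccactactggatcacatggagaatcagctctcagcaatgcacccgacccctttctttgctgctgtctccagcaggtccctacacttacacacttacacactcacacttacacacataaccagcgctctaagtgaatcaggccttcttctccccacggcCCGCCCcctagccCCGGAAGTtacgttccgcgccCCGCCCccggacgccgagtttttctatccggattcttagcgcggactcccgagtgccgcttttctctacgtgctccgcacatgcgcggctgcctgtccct
Sf3b1, chr1:55027429-55027728, minus strand: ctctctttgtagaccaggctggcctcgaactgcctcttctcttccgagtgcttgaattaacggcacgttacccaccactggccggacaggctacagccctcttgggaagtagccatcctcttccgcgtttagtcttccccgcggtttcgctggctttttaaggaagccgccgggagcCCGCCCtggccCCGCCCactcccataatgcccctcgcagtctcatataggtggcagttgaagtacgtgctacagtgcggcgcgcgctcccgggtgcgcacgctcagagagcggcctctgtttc
Hnrnph2, chrX:134600929-134601228, plus strand: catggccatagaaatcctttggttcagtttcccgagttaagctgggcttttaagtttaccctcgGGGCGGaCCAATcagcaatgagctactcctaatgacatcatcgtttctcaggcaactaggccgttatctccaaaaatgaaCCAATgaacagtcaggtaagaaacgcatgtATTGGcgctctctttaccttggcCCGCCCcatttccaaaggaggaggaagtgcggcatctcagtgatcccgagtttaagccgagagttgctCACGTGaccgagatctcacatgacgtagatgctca
In the Srek1 promoter the capitals mark 1 GGGCGG, the core letters bound by SP factors. Those of Hnrnpc mark 4 CCAAT boxes, the letters bound by NF-Y. Prpf4b holds the ETS letters CCGGAAGT and 2 matches to GGGCGG, which stand as CCGCCC on the printed strand. Sf3b1 holds 2 matches to GGGCGG. Hnrnph2 holds 2 matches to GGGCGG, 3 CCAAT boxes and the palindromic E-box CACGTG.

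The 9 lists differed in length and strength in ways that touch every count. The E10.5 lists held 14886 to 19095 peaks, the E11.5 lists 5682 to 41457 and the E12.5 lists 19139 to 50361. The highest fold enrichment was 17.9 to 20.4 in the E11.5 lists, against 5.83 to 7.47 in those of E10.5 and 6.62 to 14.7 in those of E12.5. Folds of different lists are therefore not on 1 scale, and each peak is given also by its percentile, the rank of its fold within its own list. The peak lists hold no read counts, so depth is not known, and stage cannot be told apart from whatever else set the E11.5 lists apart. Of 11 facial mesenchyme marker genes, 30.3%, 45.5% and 36.4% were called per list on average at the 3 stages, near the 31.3%, 41.7% and 27.5% of all genes. The shares were 8.33%, 16.7% and 8.33% for 8 epithelial markers, 0%, 13.3% and 6.67% for 5 blood markers, 8.33% at each stage for 4 muscle markers, 33.3%, 20% and 20% for 5 endothelial markers and 8.33%, 33.3% and 33.3% for 4 markers of nerve and glia. The endothelial share at E10.5 was above that of the mesenchyme markers and the nerve and glia share at E12.5 near it, so calls at these markers do not separate the cell types.

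In each of the 9 lists the share of splicing factor genes called was above the share of all protein-coding genes. At E10.5, 44, 43 and 35 of the 69 genes were called in samples 1 to 3 (63.8%, 62.3% and 50.7%), where 31.4%, 35.4% and 27.0% of all genes were called. At E11.5 the numbers were 33, 62 and 64 (47.8%, 89.9% and 92.8%), where 21.9%, 50.7% and 52.6% of all genes were called. At E12.5 they were 27, 38 and 29 (39.1%, 55.1% and 42.0%), where 19.4%, 36.9% and 26.3% of all genes were called. E11.5 sample 1, the shortest list, was the low value of its stage, and the E10.5 and E12.5 ranges overlapped.

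By stage, the mean share of splicing factor genes called was 58.9% ± 7.15, 76.8% ± 25.1 and 45.4% ± 8.49 for E10.5, E11.5 and E12.5 in turn (SD, n = 3 lists each). The share of all genes was 31.3% ± 4.22, 41.7% ± 17.2 and 27.5% ± 8.79 (SD, n = 3). The ratio of the former to the latter was 1.89 ± 0.135, 1.91 ± 0.245 and 1.70 ± 0.274 (SD, n = 3). Both shares had their lowest mean at E12.5 and their highest at E11.5, and the per-list ranges of the ratio overlapped between stages (1.76 to 2.03, 1.76 to 2.19 and 1.49 to 2.01). The order of the stages in this ratio depended on the peaks counted. With −log10 q of at least 5, a stricter cutoff on the authors' adjusted p-value, it was 2.48 ± 0.368, 2.25 ± 0.325 and 2.79 ± 0.335 (SD, n = 3), and E12.5 had the highest mean instead of the lowest. E12.5 also had the highest mean, by a small margin, with a 500 bp window (1.99 ± 0.471, against 1.93 at both other stages). With lists of equal length it was 2.53 ± 0.45, against 2.23 at E10.5 and 2.5 at E11.5 (SD, n = 3). E12.5 kept the lowest mean with a 2 kb window, with peak summits, and with RefSeq starts counted alone or beside the gene boundaries. With 3 lists against 3, an exact two-sided permutation test cannot give a p under 0.1.

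**Figure D1:**
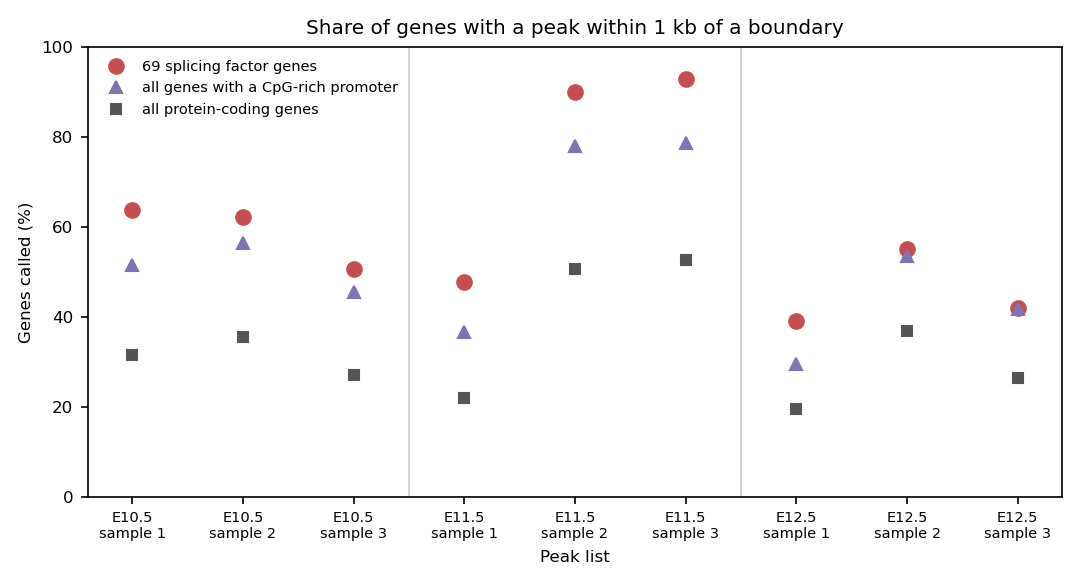
Percent of genes called (vertical axis) in each of the 9 peak lists (horizontal axis) for the 69 splicing factor genes (circles), all genes with a CpG-rich promoter (triangles, GC over 50% and CpG ratio over 0.6) and all 21631 protein-coding genes (squares). The circles lie above the squares in every list, and at E12.5 samples 2 and 3 they nearly coincide with the triangles (55.1% against 53.5%, and 42.0% against 41.8%).

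CpG-rich promoters were common among these genes. Of the 78 promoter entries found for 60 of the 69 genes, 70 (89.7%) were CpG-rich, here a GC content over 50% and an observed over expected CpG ratio over 0.6, against 45.4% of 21045 entries for all genes. Genes with a CpG-rich promoter, whatever their function, were called at 51.2% ± 5.51, 64.4% ± 24.0 and 41.6% ± 12.0 per list by stage (SD, n = 3). The splicing factor genes with such a promoter were called at 61.2% ± 7.59, 78.2% ± 25.2 and 46.1% ± 8.99 (SD, n = 3). The distance to CpG-rich genes was thus smaller than that to all genes at each stage. The part of CpG content in the calls was not tested.

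The pattern of calls by gene ran from full to none. In all 3 E10.5 lists 26 genes were called (37.7%, against 19.1% of all genes), in all 3 E11.5 lists 32 (46.4%, against 21.5%) and in all 3 E12.5 lists 19 (27.5%, against 11%). Without any E10.5 call were 13 genes (18.8%, against 55.9%), without any E11.5 call 4 (5.8%, against 42.5%) and without any E12.5 call 24 (34.8%, against 54.5%). Among genes with a CpG-rich promoter, 35.3% had no E12.5 call, so the share of splicing factor genes without one was near that background. All stages were represented, with at least 1 call each, for 43 genes (62.3%, against 33.0%), and with at least 2 calls each for 26 (37.7%, against 18.7%).

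**Figure D2:**
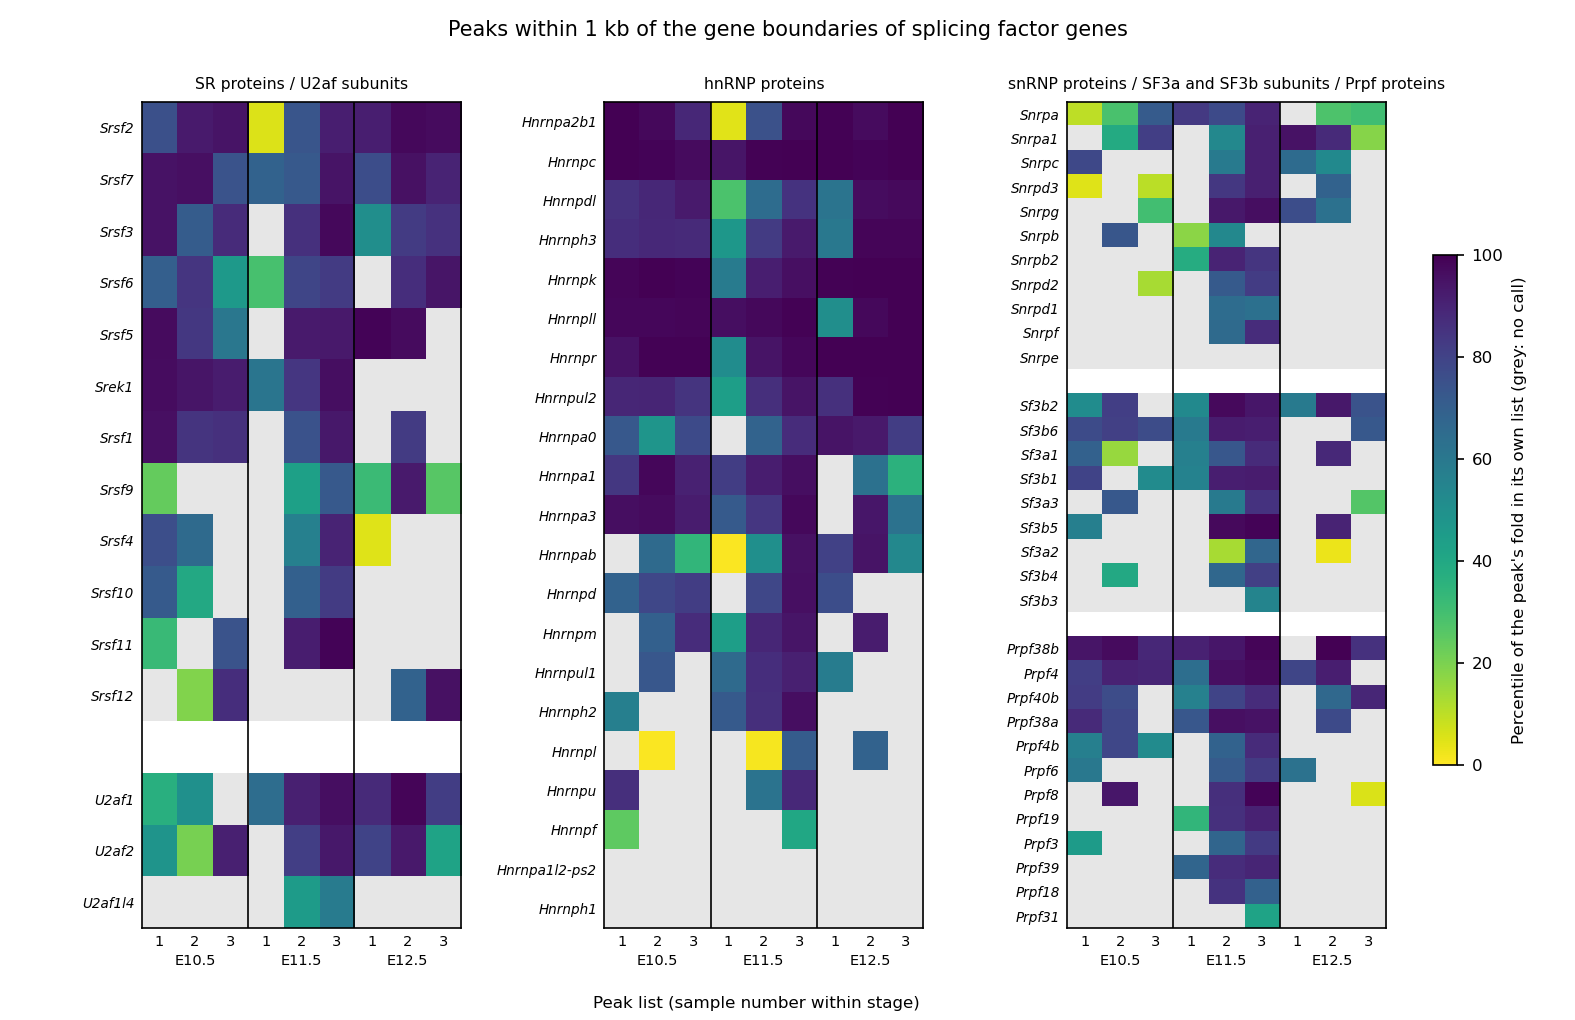
Calls of splicing factor genes (rows, grouped by role) in the 9 lists (columns, samples 1 to 3 of each stage). Colour gives the percentile of the gene's strongest peak among all folds of its own list, and grey marks no call; the hnRNP panel holds 8 genes that are coloured in all 9 columns, and 24 rows are grey throughout E12.5.

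Genes kept in all 9 lists numbered 11 (15.9%, against 6.1% of all genes and 11.7% of genes with a CpG-rich promoter). They included the SR protein genes Srsf2 and Srsf7 and the hnRNP genes Hnrnpa2b1, Hnrnpc, Hnrnpdl, Hnrnph3, Hnrnpk, Hnrnpll, Hnrnpr and Hnrnpul2. Srsf2 and Srsf7 bind exonic enhancers, and the hnRNP genes encode RNA-binding regulators of splicing and mRNA fate. No snRNP, SF3 or U2af gene was among them.

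Among the SR protein genes, 12 with Srek1, a mean of 83.3% ± 8.33, 72.2% ± 33.7 and 55.6% ± 9.62 were called per list by stage (SD, n = 3). The shares of all genes were 31.3%, 41.7% and 27.5%. E11.5 sample 1 called 4 of the 12, and the other two E11.5 lists 11 each. Srsf7 (chr17:80200080-80207369, minus strand) had folds of 4.66, 3.88 and 2.83 in the E10.5 lists, then 5.83, 6.49 and 6.75 a day later, then 3.94, 3.24 and 3.51 in the E12.5 lists. Its percentiles stayed between 68.7 and 95.9, so it ranked in the upper part of every list. Srsf2 (chr11:116849897-116853675, minus strand) lay at percentiles 75.5, 92.9 and 94.6, then 5.46, 73.8 and 91.6, then 91.7, 98.0 and 97.1. Its one low rank was in E11.5 sample 1, the shortest list.

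Srek1 encodes a splicing regulator rich in glutamic acid and lysine that interacts with SR proteins (chr13:103738565-103774616, minus strand). Its peak had folds of 4.85, 3.71 and 3.33 in the E10.5 lists, then 5.48, 7.95 and 7.53 in the E11.5 lists, with −log10 q of 8.61, 8.53 and 6.64, then 5.62, 17.6 and 23.7 (q is the authors' peak caller's p-value after correction for multiple tests). These ranked at percentiles 96.7, 94.5 and 92.4, then 61.0, 84.3 and 96.4. The summits lay 72 to 307 bp downstream of the start shown above, all on the transcribed side. All lay outside the printed sequence, which ends 50 bases after the start. In E10.5 sample 2 the whole peak lay outside it. In the E12.5 lists the nearest peak lay 103830, 17821 and 91829 bp from a boundary of the gene. E12.5 sample 2 had 1 peak inside the gene, far from both of its ends, and E12.5 samples 1 and 3 had none inside it.

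Srek1 was the only splicing factor gene called in all 6 earlier lists and in no E12.5 list (1.45%, against 0.721% of all genes). Counted among the 19 splicing factor genes called in all 6 earlier lists, 1 (5.26%) had no E12.5 call, where 156 (5.74%) of the 2719 such genes overall had none. That share is near the background. Of the other 18, Sf3b6 was called in 1 E12.5 list, Hnrnpa1, Hnrnpa3, Prpf38b, Prpf4, Snrpa and Srsf6 in 2, and the 11 called in all 9 lists in 3 (57.9%, against 48.5% overall). The count of 1 moved to 2 without E10.5 sample 2 (adding Sf3b1), without E11.5 sample 1 (adding Prpf4b) or without E12.5 sample 3 (adding Sf3b6).

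The missing calls in these partial cases were mostly those of 1 list. Of the 6 genes called in 2 E12.5 lists, 5 lacked the call in E12.5 sample 1. Its peaks were the narrowest (median width 98 bp, against 153 to 353 bp elsewhere). This list also called the smallest share of all genes at its stage (19.4%, against 36.9% and 26.3%). For the 870 genes overall with 2 such E12.5 calls, the list lacking the call is not given here. Hnrnpa1, a classic antagonist of exon inclusion, had folds of 3.87, 4.39 and 3.25 in the E10.5 lists, then 6.69, 9.51 and 7.36 in the E11.5 lists. Its E12.5 peaks had folds of 2.56 in sample 2 and 2.70 in sample 3, at percentiles 62.5 and 35.6, where its 6 earlier peaks ranked at 82.0 to 98.4. Srsf6, an SR protein gene, ranked at 86.8 and 94.3 in the same lists, above its 6 earlier ranks of 29.1 to 84.4. Sf3b6, whose product contacts the branch point adenosine, ranked at 59.2 to 92.2 in the earlier lists and at 72.4 in E12.5 sample 3. The part of peak width in these calls was not tested.

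Srsf10 and Srsf11 were the remaining SR protein genes without an E12.5 call. Srsf10, a regulator that acts as a repressor when dephosphorylated, was called in E10.5 samples 1 and 2 (folds 3.51 and 2.46) and E11.5 samples 2 and 3 (6.30 and 4.31). Srsf11 was called in E10.5 samples 1 and 3 (2.91 and 2.83) and E11.5 samples 2 and 3 (9.50 and 9.93). The start of Srsf11 lies 15 bp from that of Lrrc40, so a peak there cannot be assigned to either gene.

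The 21 hnRNP genes were called at 71.4% ± 4.76, 81.0% ± 12.6 and 60.3% ± 5.5 per list by stage (SD, n = 3), where all genes were called at 31.3%, 41.7% and 27.5%. Hnrnpc (chr14:52073377-52104039, minus strand), whose product binds uridine tracts and packages nascent transcripts, had folds of 6.44, 4.74 and 3.75, then 8.40, 13.6 and 14.1, then 7.0, 3.75 and 5.27. Its percentiles were 94.4 to 99.9, with a mean of 98.7, the highest among the genes called in all lists. Hnrnpk (chr13:58391132-58403343, minus strand), a binder of cytosine-rich RNA and DNA, ranked at 58.3 in E11.5 sample 1 and above 90 in the other 8 lists. Its summits lay at -473 to -334 bp from the start in all 9 lists, upstream of it. Hnrnpdl, which regulates its own splicing, had the lowest mean percentile of the hnRNP genes kept throughout, 77.9, and ranged from 28.5 to 97.3.

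The 5 hnRNP genes without an E12.5 call were 23.8% of the group, against 54.5% of all genes. Of these 5, 3 depended on where the annotation puts the gene's outer boundary. Hnrnph1 (chr11:50375257-50386528, plus strand) had no call in any list, but its RefSeq starts lie 1733 to 3034 bp inside that boundary. Counted at those starts it had a peak in 8 of 9 lists, with folds of 2.90 and 4.15 in E12.5 samples 2 and 3 and none in sample 1. Hnrnpf, its close relative in binding guanine-rich RNA, had a peak at a RefSeq start in 9 lists, with E12.5 folds of 4.08, 2.93 and 3.16. Hnrnpu, a nuclear scaffold protein gene whose start lies 1076 bp inside the boundary, had such a peak in 8 lists, with E12.5 folds of 3.94, 3.33 and 3.92 and none in E11.5 sample 1.

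With RefSeq starts counted beside the gene boundaries, splicing factor genes without an E12.5 call numbered 21 instead of 24. Such hnRNP genes numbered 2 instead of 5, namely Hnrnph2 and Hnrnpa1l2-ps2. Calls of all genes rose too, from 19.4%, 36.9% and 26.3% in E12.5 samples 1 to 3 to 21.3%, 39.9% and 28.8%. With RefSeq starts counted alone, 22 of the 60 genes with a known start had no E12.5 call. These included Hnrnpl, Prpf8, Sf3a2, Snrpd3 and Srsf4, which had an E12.5 call by their boundaries. The share of all genes called in E12.5 samples 1 to 3 was then 18.8%, 35.9% and 27.1%. Hnrnph2, the X-linked relative of Hnrnph1, was called in E10.5 sample 1 (fold 3.23) and in the E11.5 lists (6.01, 8.33 and 7.37), and its nearest E12.5 peak lay 53883 bp away. Hnrnpa1l2-ps2 carries a pseudogene symbol although the annotation lists it as protein-coding, and it was called in no list.

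The 11 snRNP genes encode the Sm ring and proteins of the U1 and U2 particles. They were called at 33.3% ± 10.5, 66.7% ± 34.4 and 30.3% ± 13.9 per list by stage (SD, n = 3), and 6 of them (Snrpb, Snrpb2, Snrpd1, Snrpd2, Snrpe and Snrpf) had no E12.5 call. That is 54.5% of the group, the same as the 54.5% of all genes, and the shares at E10.5 and E12.5 were near those of all genes (31.3% and 27.5%). Both shares were below those of genes with a CpG-rich promoter (51.2% and 41.6%), of which 35.3% had no E12.5 call. Snrpb2, a U2 protein gene, was called only at E11.5, with folds of 4.70, 8.95 and 4.49. Snrpf and Snrpd1, both Sm ring genes, were called in E11.5 samples 2 and 3 alone. Snrpd2 was called in these lists and in E10.5 sample 3, and Snrpb in E10.5 sample 2 and E11.5 samples 1 and 2. Snrpe, another Sm ring gene, was called in no list, and its nearest E12.5 peak lay 53810 bp away. Together with Hnrnph1 and Hnrnpa1l2-ps2 it made up the 3 genes called in no list (4.35%, against 34.6% of all genes). Snrpa, which encodes the A protein of U1, was called in all 6 earlier lists at percentiles from 9.85 to 89.9 and in E12.5 samples 2 and 3 at 27.8 and 30.7.

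The 9 SF3a and SF3b genes encode the U2 subcomplexes that recognise the branch site. They were called at 44.4% ± 19.2, 77.8% ± 29.4 and 29.6% ± 17.0 per list by stage (SD, n = 3), and Sf3b1, Sf3b3 and Sf3b4 (33.3%, against 54.5% of all genes) had no E12.5 call. All genes were called at 31.3%, 41.7% and 27.5%, so the E12.5 share was near that of all genes. It was below the 41.6% of genes with a CpG-rich promoter, of which 35.3% had no E12.5 call. Sf3b1 (chr1:54985169-55027501, minus strand), the largest SF3b scaffold, had folds of 3.72 and 2.58 in E10.5 samples 1 and 3 and of 5.31, 9.37 and 5.93 at E11.5. It was without a call in E10.5 sample 2 and at E12.5, where its nearest peak lay 15417 bp away. Sf3b3 was called in E11.5 sample 3 alone (fold 3.20), and Sf3b4 in E10.5 sample 2 and E11.5 samples 2 and 3.

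The 13 Prpf genes encode pre-mRNA processing factors of several stages of the cycle. They were called at 48.7% ± 16.0, 82.1% ± 24.7 and 30.8% ± 7.69 per list by stage (SD, n = 3), and 6 of them (Prpf18, Prpf19, Prpf3, Prpf31, Prpf39 and Prpf4b) had no E12.5 call, 46.2% against 54.5% of all genes. The share called at E12.5 was near the 27.5% of all genes and below the 41.6% of genes with a CpG-rich promoter. Of the latter, 35.3% had no E12.5 call, a smaller share than the 46.2% of the Prpf genes. Prpf4b, a kinase gene of the tri-snRNP, was called at E10.5 (3.23, 2.98 and 2.58) and in E11.5 samples 2 and 3 (6.23 and 4.93), and its nearest E12.5 peak lay 87995 bp away. Prpf19, the ubiquitin ligase of its own complex, and Prpf39, a U1-associated protein gene, were called in the 3 E11.5 lists and nowhere else. Prpf3 was called in E10.5 sample 1 and E11.5 samples 2 and 3, Prpf18 in these E11.5 lists and Prpf31 in E11.5 sample 3, all of them genes that act around the tri-snRNP or the second step.

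Of the 3 U2af genes, U2af1 and U2af2, the subunits that read the 3′ splice site, were called in 8 lists each, including the 3 at E12.5. U2af1 lacked a call in E10.5 sample 3 and U2af2 in E11.5 sample 1. U2af1l4, a paralogue of the small subunit, was called in E11.5 samples 2 and 3 alone (folds 4.81 and 3.26).

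Grouped after the values were seen, the 33 SR and hnRNP genes were called at 75.8% ± 5.25, 77.8% ± 20.2 and 58.6% ± 7.0 per list by stage, and the 36 genes of spliceosome components at 43.5% ± 8.93, 75.9% ± 29.7 and 33.3% ± 10.0 (SD, n = 3). The SR and hnRNP genes held 10 of the 11 genes called in all lists and 8 of the 24 without an E12.5 call (24.2% of the group, against 44.4% of the spliceosome components and 54.5% of all genes). All genes were called at 31.3%, 41.7% and 27.5%, so at E12.5 the spliceosome components were close to all genes. Genes with a CpG-rich promoter were called at 51.2%, 64.4% and 41.6%, and 35.3% of them had no E12.5 call. At E10.5 and E12.5 these shares lay between those of the 2 groups. At E10.5 and E12.5 the per-list ranges of the 2 groups did not overlap, at 23 to 26 of 33 against 12 to 18 of 36, and at 18 to 22 of 33 against 9 to 16 of 36. At E11.5 they overlapped.

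**Figure D3:**
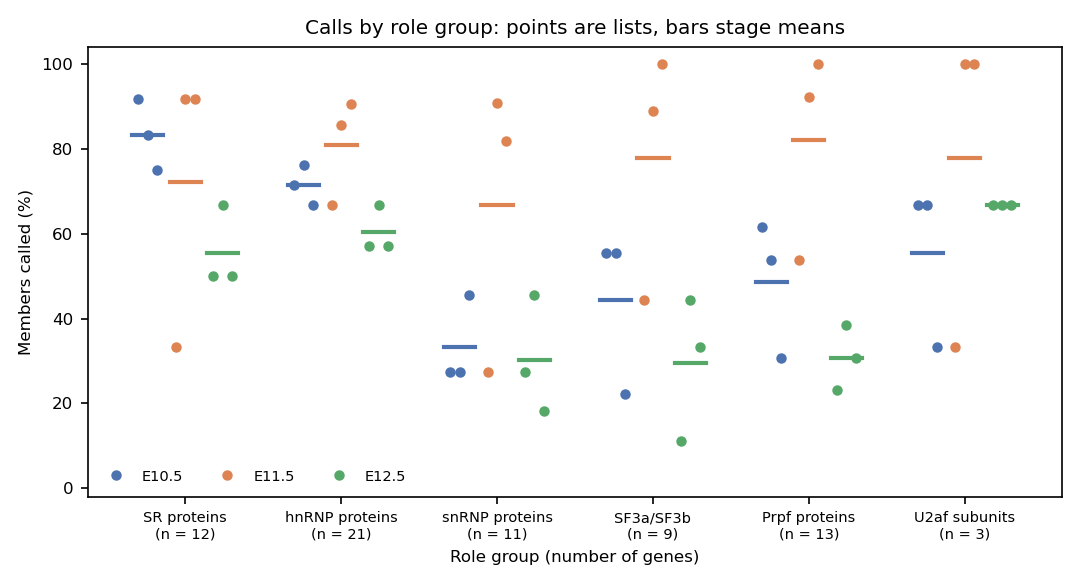
Percent of genes called (vertical axis) in each role group (horizontal axis), with 1 point per list and a bar at the mean of the 3 lists of a stage. At E10.5 and E12.5 the means of the SR and hnRNP groups (83.3% and 71.4%, then 55.6% and 60.3%) lie above those of the snRNP, SF3 and Prpf groups (33.3%, 44.4% and 48.7%, then 30.3%, 29.6% and 30.8%), and the E11.5 points spread widest. The 3 U2af genes do not follow this order, with means of 55.6% at E10.5 and 66.7% at E12.5, the latter the highest of the 6 groups.

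Other genes of the pathway lay outside the symbol rule. Of 102 such genes, 7 (6.86%) were called in all 9 lists, 46 (45.1%) in no E12.5 list and 10 in no list. The shares of all genes were 6.1%, 54.5% and 34.6% for the 3 patterns. A mean of 45.4%, 66.7% and 35.0% of the 102 was called per list by stage, where all genes were called at 31.3%, 41.7% and 27.5%. Their subgroups, of 6 to 20 genes, lay on both sides of the 27.5% of all genes at E12.5. The share was 51.7% for 20 other regulators such as Ptbp1, although 3 of these, among them Mbnl1, were called in no list. It was 45.2% for 14 SR-related proteins and kinases and 35.0% for 20 further snRNP and tri-snRNP genes. The lowest shares, both below that of all genes, were 21.7% for 20 genes of the Prp19 complex and step factors and 16.7% for 6 branch site genes. The remaining subgroups lay between these ends, at 38.1% for 7 exon junction genes, 28.6% for 7 minor spliceosome genes and 25% for 8 snRNP assembly genes. None of the 102 was called in all 6 earlier lists and in no E12.5 list, a pattern of 0.721% of all genes.

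Peaks sat mostly on the start side of the genes. Of 375 calls, 326 concerned genes with a known strand. Of these, 320 had a peak within 1 kb of the outer boundary on the start side and 6 at the end only. The 6 were all E12.5 calls, 1 each at Prpf8, Sf3a2, Sf3b2, Snrpa, Snrpd3 and Srsf4, so these genes had fewer E12.5 promoter calls than their counts above say. In 2 further calls the strongest peak lay at the end although the start side had a peak too. Hnrnpl in E12.5 sample 2 and Hnrnpul1 in E12.5 sample 1 had a peak by the start-side boundary but none within 1 kb of a RefSeq start. Their summits lay at -1681 and -1342 bp from the start, upstream of it. Summits of the strongest peak within 200 bp of a RefSeq start made up 62.6%, 71.7% and 55.6% of these calls by stage.

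**Figure D4:**
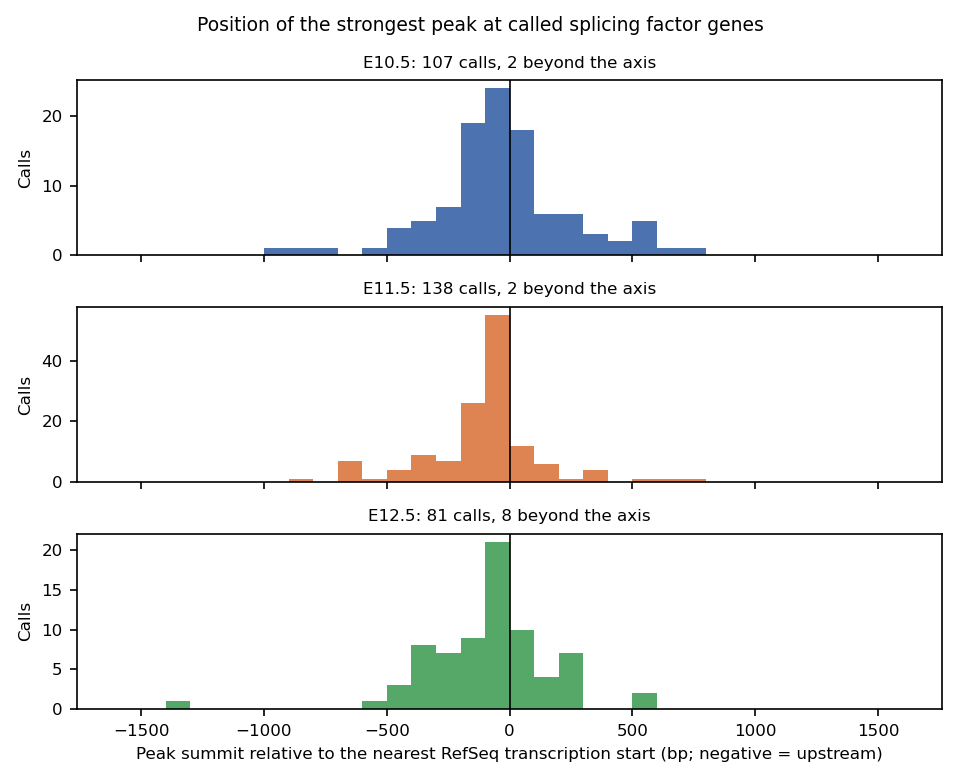
Number of calls (vertical axis) by distance of the peak summit from the nearest RefSeq start (horizontal axis, bp, negative upstream) at the 3 stages, for called genes with a known start. The tallest bar lies just upstream of the start at each stage, and the median offset was -40, -76.5 and -52 bp.

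Some calls lay near the edge of the window. Just inside 1 kb lay Prpf8 in E12.5 sample 3 (981 bp) and Prpf4b in E10.5 sample 1 (967 bp), and just outside lay Hnrnpul1 in E10.5 samples 3 and 1 (1006 and 1014 bp). Hnrnpul1 also had a peak just inside in E10.5 sample 2 (961 bp), so its 3 E10.5 lists fell on both sides of the edge.

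Many of the genes share a boundary with another gene. A neighbouring gene's start or end lay within 1 kb for 32 of the 69, and a peak there cannot be assigned to either gene. Of the 60 genes with a known start, 12 (20%) formed a divergent pair with starts within 1 kb, against 6.70% of 17274 genes overall. These included Hnrnpa2b1 with Cbx3 (106 bp apart), Hnrnpa1 with Cbx5 (39 bp), Srsf7 with Gemin6 (135 bp) and Hnrnpc with Rpgrip1 (202 bp). Hnrnpd, Hnrnpdl, Sf3b3, Snrpa and U2af1l4 also had a neighbour's start-side boundary within 1 kb of their own. They were not counted among the 12 and stand with the other 48. Divergent genes were called in a median of 7 lists, the other 48 in 5, and over all genes the medians were 6 and 2. The arrangement therefore went with more calls among genes at large too.

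The promoters of the genes called in all 9 lists were all CpG-rich (10 of 10 entries, for 8 genes), with a median GC content of 69%. Of the entries of genes without an E12.5 call, 25 of 30 were CpG-rich, with a median GC content of 58.2%. These 30 include the entries of Hnrnph1, Hnrnpf and Hnrnpu, whose RefSeq starts had E12.5 peaks, and without these 3 genes 16 of 20 were CpG-rich, with a median of 57.8%. The median was 60.5% over all 78 entries of the splicing factor genes and 56.7% over those of all genes. Srek1 itself had 65.7% GC and a CpG ratio of 0.897, so its promoter belonged to the CpG-rich class like most others.

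Of 8 motifs searched on both strands of these 300 bases, the ETS letters CCGGAAGT had the highest ratio to all promoters, in 16.7% of the splicing factor entries against 5.2% overall and 9.06% of CpG-rich promoters. CCAAT was in 48.7%, against 38.5% and 36.0%, and the E-box CACGTG in 14.1%, against 7.91% and 11.6%. GGGCGG was in 66.7%, against 46.7% of all but 77.0% of CpG-rich promoters. The others were rarer: GCATGCGC (NRF1) in 5.13%, against 3.54% and 6.44%, TGACGTCA (CRE) in 2.56%, against 2.26% and 3.76%, and AAGATGGCG (YY1) in 2.56%, against 1.84% and 3.46%. The core-promoter letters TATAAA were in 8.97%, against 12.7% and 4.5%. For these 4 and for GGGCGG, the splicing factor share thus lay between that of all promoters and that of CpG-rich ones. The ETS letters were in 0 of 10 entries of genes called in all lists and 4 of 30 of those without an E12.5 call (3 of 20 without the same 3 genes), among them the Prpf4b promoter shown above. Matches describe letters in this window and not binding.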

How the data were processed

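ATAC-seq was deposited as 23 runs of 9 samples, and 1 peak list per sample was read. Per the submitters' processing notes, mm10, MACS2, Bowtie2 and deepTools 3.3.1 were used. Whether reads were filtered or shifted, and the peak threshold, was not given in the sources used here. Columns of each deposited list hold the authors' fold enrichment at a peak's summit (a ratio) and the authors' −log10 p-value and −log10 q-value. These values rank or filter peaks of 1 list and are not compared between lists. Read depth is not known, so no counting error can be given.

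The genes, lists and tests were chosen with earlier results of these data known. Genes came from RefSeq (GRCm38.p6), on the 19 autosomes and X. A gene was called when a peak's nearest base lay within 1000 bp of its start or end, and the peak of highest fold stood for it. The rule was tested on made-up peaks. Starts and strand came from the RefSeq promoter table, which matched 60 of 69 genes. Named genes were Srek1, those without an E12.5 call or any call, those called in all 6 earlier lists, those called in all 9 lists (values for the 2 highest and the 1 lowest mean percentile per role) and those at the window's edge. U2af1, U2af2 and neighbouring genes were named after their values were seen. Of the results, 1 item is not reported here. No test was run. The alternatives were other windows, starts only, summits, a stricter q, lists of equal length and leaving out each list. Python 3.11.15, NumPy 2.4.6, pandas 2.3.3 and Matplotlib 3.10.9 were used.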

Additional observations from a re-analysis of the deposited data

How the results depend on the processing

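Of 42 values under alternatives to the call rule, 31 stayed within the set bounds and 11 moved. The bounds are not given here, and leaving out 1 list is not among the 42. The E11.5 mean share of 76.8% counted as within bounds. It was 69.1% with −log10 q of at least 5 and 58.5% with lists of equal length. For all genes, E11.5 samples 1 to 3 then called 13.3%, 43.5% and 40.0%, and 21.9%, 23.5% and 24.5%. With −log10 q of at least 5, the mean share called was 34.8% at E10.5 and 22.2% at E12.5, 3 genes were called in all 9 lists (Hnrnpc, Hnrnpk and Hnrnpr), 42 had no E12.5 call and 2 (Hnrnpa1 and Srek1) were called in all 6 earlier lists and in no E12.5 list. With each list held to its 5682 strongest peaks, these values were 42.5%, 26.6%, 6, 41 and 3 (Hnrnpa1, Sf3b6 and Srek1). With starts only, over 60 genes, the last count was 2 (Hnrnpl and Srek1). The stricter q and the shorter lists lowered the share of all genes called too. Under the stricter q, samples 1 to 3 of E10.5 called 13.4%, 18.2% and 11.5% of all genes, and those of E12.5 called 5.14%, 12.5% and 6.4%. Under the shorter lists, the E10.5 samples called 19.5%, 20.3% and 17.5% of all genes, and the E12.5 samples called 7.3%, 11.4% and 13.7%. For the counts of genes by pattern, the background of all genes under these settings is not given here. Srek1 kept 6 earlier calls and no E12.5 call under all 7 alternatives to the call rule. Its lack of E12.5 calls could not have changed. The nearest E12.5 peak lay 17821 bp from a boundary of the gene, beyond every window, and a stricter q or shorter lists only drop peaks. The gene was also chosen with its calls known.

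Leaving out 1 list at a time gave mean shares of 56.5% to 63.0%, 68.8% to 91.3% and 40.6% to 48.6% for E10.5, E11.5 and E12.5 in turn. It gave 11 to 16 genes called in every list left, 24 to 32 without an E12.5 call and 1 to 2 called in all earlier lists and in no E12.5 list. Counting RefSeq starts beside gene boundaries was chosen after seeing the data. No paired analysis was made, because no test was run and the labels pair no samples between stages. Without read counts, an absent peak does not show closed chromatin.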
